A study of Oryza sativa Indica Group with 10 samples.

Results

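RAB21, RAB16B, PM1 and SALT are 4 rice genes known from drought, salt and abscisic acid responses, and they were followed here across the 5 groups of a study of the transcription factor OsbZIP48. They were chosen because earlier results of the same data had shown them to be high in OsbZIP48 transgenic seedlings, so their levels and differences are a description without a test. The array carried 7 probe sets for these 4 genes, of 57258 probe sets and 17905 genes tested in all. All 7 are given.

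RAB21 and RAB16B are dehydrins, a class of late embryogenesis abundant (LEA) proteins that are strongly hydrophilic and accumulate when cells lose water. Abscisic acid, the hormone that rises in drying plants, switches such genes on through PYL receptors, PP2C phosphatases that the receptors inhibit, SnRK2 kinases (SAPK in rice) that the phosphatases hold back, and bZIP factors that the kinases activate. In well-watered seedlings most of these genes are quiet, and they are strongly expressed in maturing seed and in drought. The annotation fits the name dehydrin for RAB21 and RAB16B only. PM1, also listed as OsPM19L1, is a plasma membrane protein of the AWPM-19 family, reported to carry abscisic acid into rice cells. SALT is a mannose-binding, jacalin-related lectin first described in salt-treated rice.

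RNA was measured in light-grown Pusa Basmati 1 seedlings, an Indica rice cultivar, on 1-colour Affymetrix rice arrays, with 2 biological replicates in each of 5 groups and 10 arrays in all. The groups were seedlings over-expressing OsbZIP48 (OE), set against the B4NU vector control, and seedlings knocked down for OsbZIP48 with either a lethal phenotype (KD lethal) or an appearance like wild type (KD wild-type-like), both set against the pANDA vector control. All groups, controls included, carry a transgene or an empty vector, none is an untransformed plant, and the labels name no drying or hormone treatment. The pairing of B4NU with OE and of pANDA, an RNA interference vector, with the knock-downs was inferred, since the labels do not state it. The promoter of the over-expression construct and the number of independent lines behind each group are not given in the sources used here. The labels give 10 days as the age where the design text gives 7, and whole seedling as the tissue where the extraction protocol speaks of roots. No probe set was paired with OsbZIP48 itself, and its level was therefore not analysed here.

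Values are log2 signals, and the 4 OE and B4NU arrays were taken to have been scaled apart from the 6 knock-down and pANDA arrays. Differences are therefore given within a set. Replicates correlated at 0.950 in OE, 0.998 in B4NU, 0.981 in KD lethal, 0.993 in KD wild-type-like and 0.997 in pANDA, so the 2 OE arrays differed most. The excess of 3′ over 5′ signal in 3 control genes, a measure of RNA integrity and labelling, was 0.24 and 2.42 in the OE replicates 1 and 2, and 1.70 and 1.00 in those of KD lethal. It lay between 1.53 and 2.44 on the other 6 arrays. OE replicate 1 and KD lethal replicate 2 thus stood apart, and the values without them are given where they matter. Summed over 7 shoot and photosynthesis markers, all of them above the floor in every group, the log2 signal was 11.32 to 11.55 in KD lethal, 14.24 to 14.31 in KD wild-type-like and 14.20 to 14.23 in pANDA, and 13.46 to 13.86 in OE against 14.33 to 14.35 in B4NU. Summed over 13 root markers it was 6.92 to 6.93 in KD lethal (7 genes at the floor), 10.93 to 10.94 in KD wild-type-like (4 at the floor) and 11.11 to 11.12 in pANDA (4 at the floor), and 10.15 to 11.01 in OE (3 at the floor) against 10.78 to 10.87 in B4NU (4 at the floor). The KD lethal seedlings therefore had far less signal from both marker sets than any other group, and the part of this in the results below was not tested.

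RAB21 (LOC4350454) had the widest range of the 4 genes, 8.15 log2 units over the 10 arrays. Its brighter probe set, of the plain _at kind, read 11.47 and 11.91 in OE, against 5.94 and 5.71 in B4NU. It read 11.47 and 11.29 in KD lethal and 10.17 and 10.08 in KD wild-type-like, against 3.85 and 3.76 in pANDA. Every OE and knock-down array lay above every vector array, and the groups did not overlap. The difference was 5.87 ± 0.25 in OE (58.3-fold), 7.57 ± 0.10 in KD lethal (190.0-fold) and 6.32 ± 0.07 in KD wild-type-like (79.9-fold; SE of the difference from 4 arrays, n = 2 each). KD lethal lay 1.25 ± 0.10 above KD wild-type-like, a 2.38-fold difference without overlap. The transcript was therefore high in the seedlings labelled as over-expressing OsbZIP48 and in both kinds of knock-down. In whole tissue, more cells of a type and more RNA per cell cannot be told apart.

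The other RAB21 probe set has the suffix _s_at and may match several transcripts. It read 8.88 and 10.51 in OE, against 5.69 and 5.29 in B4NU, and 10.22 and 9.42 in KD lethal and 9.65 and 9.77 in KD wild-type-like, against 4.84 and 4.44 in pANDA. The differences were 4.20 ± 0.84 in OE, 5.17 ± 0.45 in KD lethal and 5.07 ± 0.21 for KD wild-type-like. All 3 pointed the way of the first probe set, with r = 0.97 between both over the 10 arrays. The probe sets parted on the knock-downs: by this one KD lethal exceeded KD wild-type-like by 0.11 ± 0.40 and the groups overlapped.

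RAB16B (LOC4350453) encodes the dehydrin next to RAB21 in the genome. The RefSeq table of assembly ASM3414082v1 lists RAB16D, RAB16C, RAB16B and RAB21 in a row on 1 chromosome, with only 1 long non-coding RNA and 1 pseudogene between RAB16C and RAB16B. Its only probe set read 7.77 and 10.15 in OE, against 3.55 and 3.38 in B4NU. It read 6.65 and 5.51 in KD lethal and 6.33 and 6.25 in KD wild-type-like, against 3.23 and 3.24 in pANDA. RAB16B was thus highest in OE, whereas both knock-downs shared a middle level and overlapped each other. The difference was 5.5 ± 1.19 in OE (45.2-fold), 2.84 ± 0.57 in KD lethal (7.17-fold) and 3.05 ± 0.04 in KD wild-type-like (8.30-fold). The large error in OE came from its replicates, the difference being 6.69 without OE replicate 1 and 4.31 without OE replicate 2. KD lethal minus KD wild-type-like was -0.21 ± 0.57 and turned to 0.36 without KD lethal replicate 2. The RAB16 genes are known to be alike in sequence, so their probe sets may share signal.

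PM1 (LOC4338635) was not above the floor in either vector control. Its brighter probe set read 6.65 and 7.19 in OE, against 2.88 and 2.55 in B4NU. It read 7.16 and 7.67 in KD lethal and 4.40 and 4.45 in KD wild-type-like, against 2.71 and 2.69 in pANDA. The floor means that both arrays of a group lie no more than 0.5 above the lowest value in their set, so these folds are lower bounds. PM1 was at least 18.4-fold higher in OE (4.20 ± 0.31), at least 26.3-fold higher in KD lethal (4.72 ± 0.25) and at least 3.30-fold higher in KD wild-type-like (1.72 ± 0.03). The knock-downs were well apart, with KD lethal 2.99 ± 0.25 above KD wild-type-like, or 7.96-fold. A further PM1 probe set was at the floor on all 10 arrays (2.44 to 2.47) and carries no information on these groups.

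SALT (LOC4326471) was well above the floor with the empty vectors too. Its brighter probe set, with the suffix _a_at for alternative transcripts of 1 gene, read 7.96 and 8.92 in OE, against 6.97 and 7.07 in B4NU. It read 11.98 and 11.95 in KD lethal and 8.06 and 8.04 in KD wild-type-like, against 7.71 and 7.90 in pANDA. KD lethal stood far above every other group, 4.16 ± 0.10 over pANDA (17.9-fold) and 3.92 ± 0.02 over KD wild-type-like (15.1-fold). In OE the difference was 1.42 ± 0.48 (2.68-fold), and 1.90 without OE replicate 1 or 0.94 without OE replicate 2. In KD wild-type-like it was 0.24 ± 0.10 (1.18-fold), close to the spread of the pANDA arrays (SD 0.14). The other SALT probe set has the suffix _x_at and may cross-hybridise. It read 5.90 and 7.19 in OE, against 5.83 and 5.63 in B4NU, and 10.39 and 10.41 in KD lethal and 5.85 and 5.72 in KD wild-type-like, against 5.46 and 5.51 in pANDA. It followed the first with r = 0.98 and put KD lethal 4.92 ± 0.03 above pANDA. By this probe set the difference was 0.81 ± 0.65 in OE and 0.30 ± 0.07 in KD wild-type-like. OE replicate 1 (5.90) lay barely above B4NU replicate 1 (5.83).

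**Figure D1:**
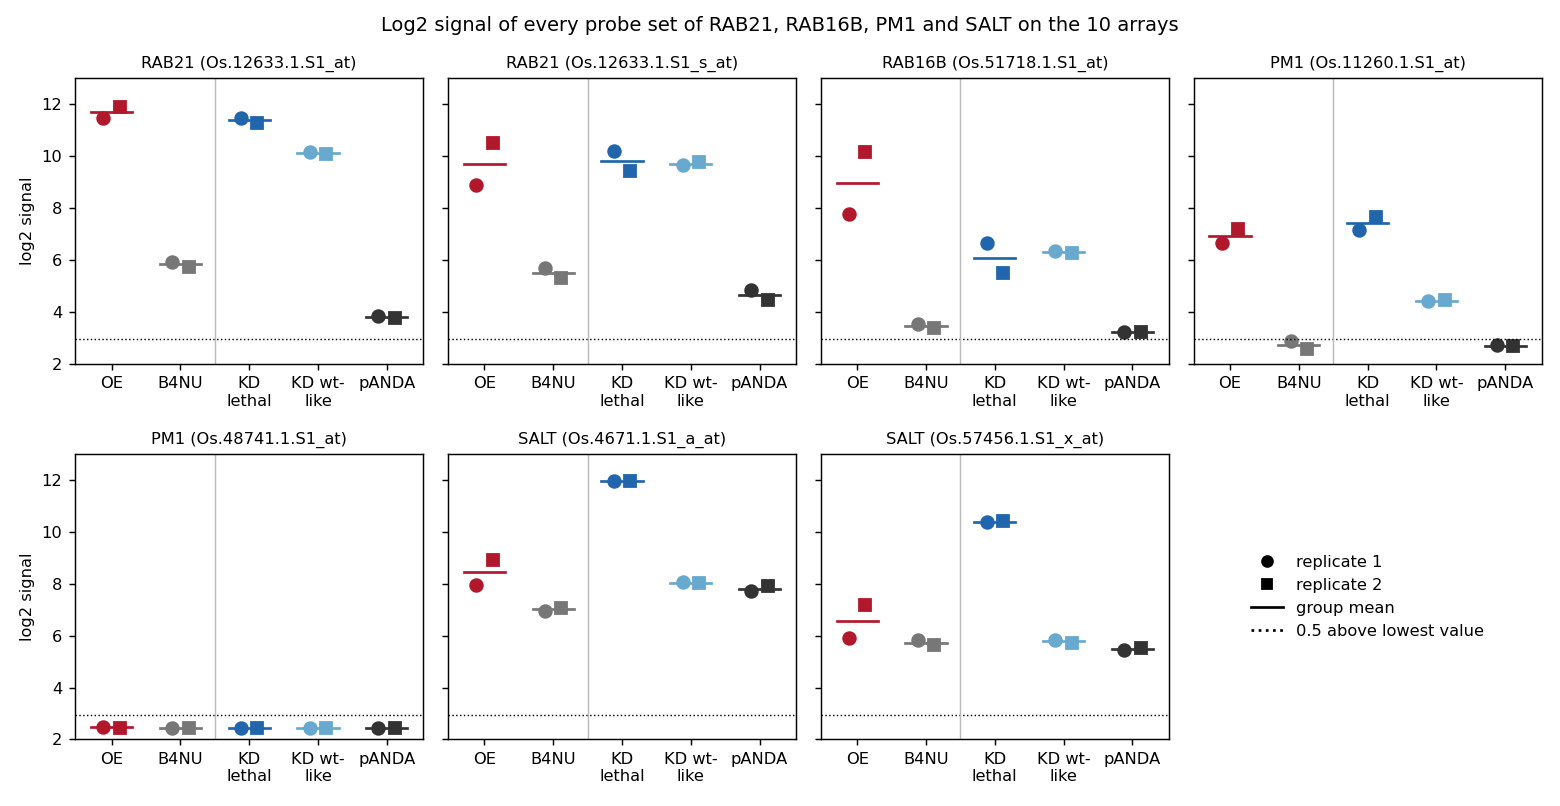
Log2 signal of all 7 probe sets of RAB21, RAB16B, PM1 and SALT on the 10 arrays, by group (circles, replicate 1; squares, replicate 2; bars, group means; dotted line, the floor). RAB21 lies between 10.08 and 11.91 in the 3 OsbZIP48 transgenic groups on its brighter probe set and between 3.76 and 5.94 in the vector controls, while SALT is highest in KD lethal (11.95 and 11.98).

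By their brightest probe sets, 4 of 4 genes had both OE arrays above both B4NU arrays, as did 8.82% of all probe sets. The same was true of 4 of 4 genes for KD lethal over pANDA (20.4% of all probe sets) and for KD wild-type-like over pANDA (11.5%), and of 3 of 4 for KD lethal over KD wild-type-like (20.3%). With a difference of at least 1 log2 unit as well, the counts were 4 in OE (0.692% of all probe sets), 4 in KD lethal (7.39%), 3 in KD wild-type-like (0.274%) and 3 for KD lethal over KD wild-type-like (7.26%). Since the genes were picked from these contrasts, nothing is read from the counts. The 2 knock-down comparisons share the pANDA arrays.

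The order of the groups, by the brightest probe sets, differed from gene to gene. RAB21 ran OE, KD lethal, KD wild-type-like, B4NU and pANDA from high to low, with OE and KD lethal meeting at 11.47, whereas its other probe set had KD lethal, KD wild-type-like and OE overlapping above both vectors. RAB16B had OE first, then both knock-downs together, then the vectors. PM1 had KD lethal and OE overlapping at the top, KD wild-type-like in the middle and both vectors at the floor. SALT had KD lethal at the top, with OE and KD wild-type-like overlapping near the vectors. Orders between OE and the knock-downs cross these 2 sets of arrays. The vectors themselves differed by that measure, pANDA minus B4NU being -2.02 for RAB21, -0.23 for RAB16B and 0.78 for SALT. The other probe sets gave -0.85 for RAB21 and -0.25, the other direction, for SALT, and vector and set cannot be told apart. Over the 10 arrays, r was 0.91 for RAB21 with PM1, 0.88 for RAB21 with RAB16B, 0.80 for RAB16B with PM1, 0.79 for PM1 with SALT, 0.59 for RAB21 with SALT and 0.34 for RAB16B with SALT. These correlations describe arrays that share groups and scaling.

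A list of 49 dehydration and LEA gene names, 18 of which matched the annotation, gave 7 genes on the array besides the members. Other such genes on the array may have been missed. Being no members, the 7 were tested with limma over all 57258 probe sets, called at an adjusted p under 0.05. In KD lethal 2 were higher and 1 lower than in pANDA, beside 26.2% of all genes called, and the median difference was 0.61, against 0.02 over all genes. In OE 1 was higher and 0 were lower than in B4NU, beside 2.88% of all genes, with a median of 0.55 against -0.05. In KD wild-type-like limma called 0 of 7 (2 at an unadjusted p under 0.05), beside 0.363% of all genes, with a median of 0.08 against 0. Between the knock-downs 1 was higher and 1 lower in KD lethal, beside 23.8% of all genes, with a median of 0.58 against 0.03.

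LEA3, a group 3 LEA protein, had the largest difference of these 7 genes in KD lethal. Its probe set has the suffix _s_at and may match several transcripts. It read 9.41 and 9.10 in KD lethal and 6.86 and 6.96 in KD wild-type-like, against 4.53 and 4.52 in pANDA, and 7.12 and 8.57 in OE against 5.28 and 5.25 in B4NU. It rose in KD lethal by 4.73 ± 0.45, or 26.5-fold (adjusted p = 0.00253). The differences of 2.39 ± 0.45 in KD wild-type-like (adjusted p = 0.248) and 2.58 ± 0.45 in OE (adjusted p = 0.0818) did not pass, although their groups did not overlap. From the 4 compared arrays alone, the SE was 0.05 in KD wild-type-like and 0.72 in OE. It was 2.34 ± 0.45 higher in KD lethal than in KD wild-type-like (adjusted p = 0.029), a call lost on leaving out any 1 array other than the OE arrays (adjusted p up to 0.109).

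RAB16D, the dehydrin at the other end of the row, read 7.43 and 6.15 in KD lethal and 4.09 and 4.32 in KD wild-type-like, against 3.28 and 3.76 in pANDA. It read 5.31 and 7.02 in OE, against 2.83 and 2.71 in B4NU, where it was at the floor. It rose in KD lethal by 3.27 ± 0.67, or 9.65-fold (adjusted p = 0.0335), a call lost without any 1 array of B4NU, pANDA or KD wild-type-like and without KD lethal replicate 1 (adjusted p up to 0.151). In OE the 3.40 ± 0.67 did not pass (adjusted p = 0.115). RAB16C, between them, read 4.87 and 3.55 in KD lethal and 3.55 and 4.38 in KD wild-type-like, against 2.55 and 2.59 in pANDA, and 3.38 and 4.13 in OE against 3.41 and 3.0 in B4NU. None of its differences passed (adjusted p of 0.146 in KD lethal, 0.962 in KD wild-type-like and 0.8 in OE).

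DHN1, another dehydrin, passed the test in no comparison. It read 8.51 and 7.13 in KD lethal and 8.0 and 8.14 in KD wild-type-like, against 8.07 and 7.91 in pANDA, and 5.73 and 7.18 in OE against 6.99 and 6.52 in B4NU, with differences of -0.16, 0.08 and -0.30 ± 0.62 (adjusted p of 1 in each). RAB25 was at or near the floor everywhere, with its highest value, 3.58, on KD lethal replicate 1. EMP1, a seed LEA protein of group 1, read 3.19 and 3.08 in KD lethal against 2.52 on both pANDA arrays, a difference of 0.61 ± 0.18 (adjusted p = 0.0987). BURP3, a BURP-domain protein of the RD22 kind, moved in opposite directions. It read 8.05 and 7.95 in OE against 6.85 and 6.90 in B4NU, a rise of 1.13 ± 0.07 (adjusted p = 0.00399). That call was lost with quantile scaling or array weights and in a fit of the 4 compared arrays alone. BURP3 read 6.43 and 6.36 in KD lethal against 7.25 and 7.40 in pANDA. In KD lethal it fell by 0.93 ± 0.07 on the log2 scale (adjusted p = 0.000994), a call also lost in a fit of the 4 compared arrays alone.

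**Figure D2:**
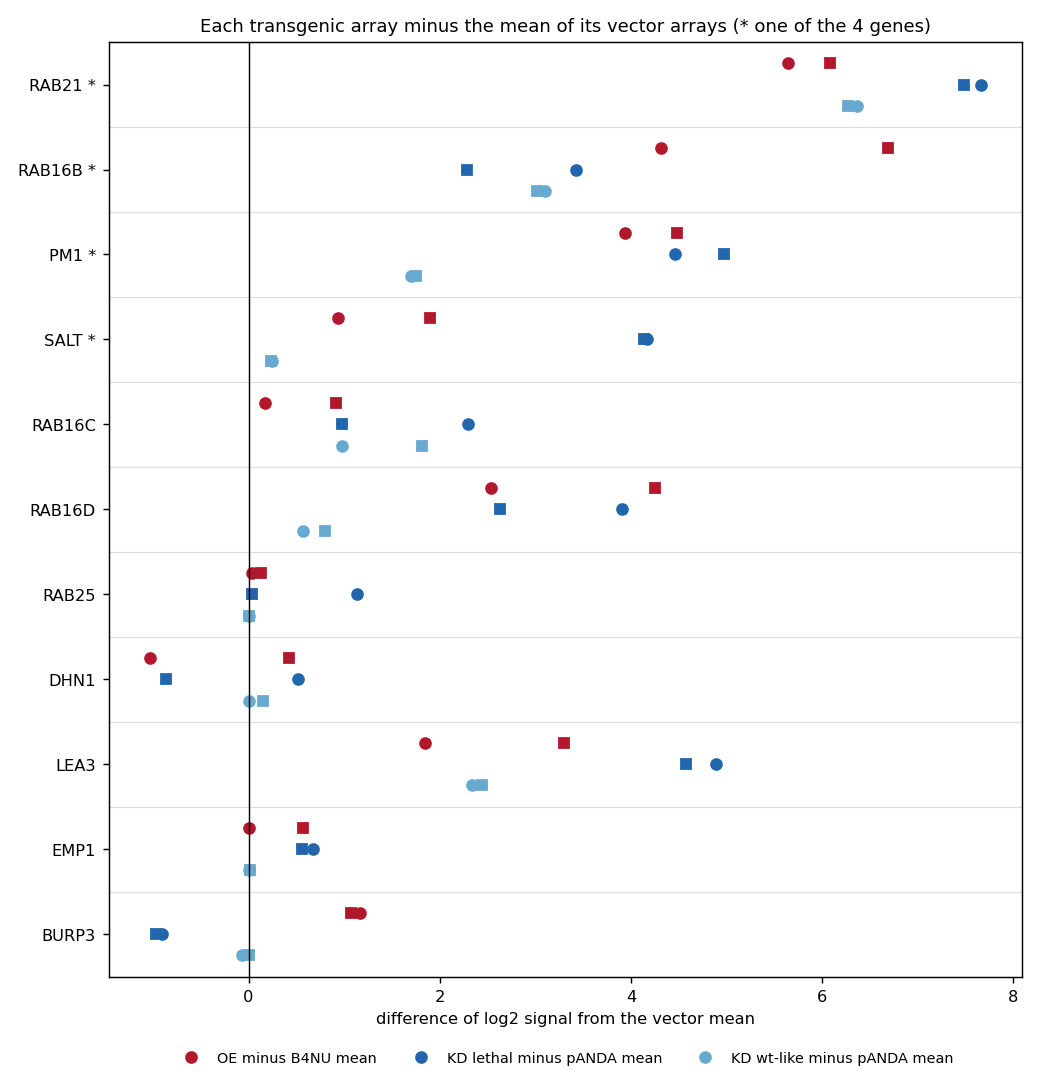
Log2 signal of each transgenic array minus the mean of its vector arrays, for RAB21, RAB16B, PM1 and SALT (marked *) and the 7 other genes of the dehydration and LEA list (circles, replicate 1; squares, replicate 2; colours, the 3 transgenic groups). All arrays of RAB21, RAB16B, PM1 and SALT lie right of 0, whereas DHN1 straddles 0 and BURP3 lies to the right in OE and to the left in KD lethal.

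Seed tissue is another place where these genes are known to be active. Of 12 seed and embryo markers, 9 were at the floor in KD lethal, 10 in KD wild-type-like, 9 in pANDA, 7 in OE and 9 in B4NU, and their summed log2 signal was 6.78 to 6.90 in KD lethal, 7.30 to 7.37 in KD wild-type-like and 7.30 to 7.39 in pANDA, and 7.01 to 7.60 in OE against 7.48 to 7.49 in B4NU. Only 1 of the 12, VP1, was called in KD lethal, and VP1 and EMP1 also stand in the lists tested here. Of 8 senescence markers, 5 rose in KD lethal (62.5%, beside 26.2% of all genes) and 1, MS, a malate synthase, in KD wild-type-like (12.5%, beside 0.363% of all genes), where its difference was 0.92 ± 0.09 (adjusted p = 0.0356). Their summed signal, on the log2 scale, was 10.79 to 11.10 in KD lethal, 8.73 to 8.95 in KD wild-type-like and 8.57 to 8.68 in pANDA, and 8.32 to 8.88 in OE against 9.15 to 9.19 in B4NU. The part of the senescence markers in the levels of the 4 genes was not tested.

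Abscisic acid is broken down by 8′-hydroxylases. A list of 19 names for its synthesis and breakdown gave only 3 genes on the array, ZEP, ABA8OX1 and ABA8OX2. The NCED synthesis genes on the list were therefore not covered. Of the 3 genes, 1 was called in KD lethal (33.3%, beside 26.2% of all genes). Limma called 0 in OE (1 at an unadjusted p under 0.05) and 0 in KD wild-type-like (0 at an unadjusted p under 0.05). ABA8OX1, such a hydroxylase, read 6.92 and 7.32 in KD lethal and 9.56 and 8.74 in KD wild-type-like, against 9.30 and 9.65 in pANDA. In KD lethal it fell by 2.36 ± 0.30 on the log2 scale (adjusted p = 0.00715). In OE it read 4.09 and 3.84, against 5.85 and 5.84 in B4NU, a difference of -1.87 ± 0.30 that did not pass (adjusted p = 0.0683).

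A list of 65 names of receptor and signalling genes gave 23 genes on the array, with PYL5 the only receptor. Of these 23 genes, 5 were higher and 1 lower in KD lethal than in pANDA. That is 26.1% of the list beside 26.2% of all genes, so the list as a whole was at the background. Limma called 0 of them in OE (5 at an unadjusted p under 0.05, beside 2.88% of all genes called) and 0 in KD wild-type-like (4 at an unadjusted p under 0.05, beside 0.363% of all genes called). The median difference in KD lethal was 0.22, against 0.02 over all genes. SAPK6 read 6.74 and 7.67 in KD lethal against 4.59 and 4.46 in pANDA, a rise of 2.68 ± 0.31 (adjusted p = 0.00479). SAPK1 read 7.96 and 7.91 in KD lethal against 5.93 and 6.21 in pANDA, a rise of 1.87 ± 0.17 (adjusted p = 0.0022). SAPK10 rose by 1.47 ± 0.19 (adjusted p = 0.0071) against a pANDA level at the floor. That call was lost with B4NU as the control, the means being 4.22 in KD lethal and 3.74 in B4NU. SAPK6, SAPK1 and SAPK10 are SnRK2 kinases of the abscisic acid and osmotic stress pathway. TRAB1, a bZIP factor of abscisic acid responses, rose by 0.75 ± 0.17 (adjusted p = 0.0428), a call lost on leaving out any 1 array other than the OE arrays (adjusted p up to 0.183). The TRAB1 call was also lost with B4NU as the control. The remaining gene that rose was VP1, a seed regulator whose values were at the floor. The one that fell was PP2C30, a phosphatase that restrains the pathway, which read 6.22 and 6.85 in KD lethal against 8.46 and 8.41 in pANDA (-1.90 ± 0.36, adjusted p = 0.0265), a call lost without any 1 array of B4NU, pANDA or KD wild-type-like and without KD lethal replicate 1 (adjusted p up to 0.115). PP2C09 was 1.17 ± 0.22 lower in KD lethal than in KD wild-type-like on the log2 scale (a difference of -1.17, adjusted p = 0.0273), a call lost without the same arrays (adjusted p up to 0.101).

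Of 17 transcription factors of dehydration and cold, 4 were higher and 6 lower in KD lethal than in pANDA (58.8%, beside 26.2% of all genes). NAC45 read 8.46 and 7.97 in KD lethal and 3.14 and 2.59 in KD wild-type-like, against 3.30 and 2.98 in pANDA, a rise in KD lethal of 5.08 ± 0.27 (adjusted p = 0.000394). DREB2B, of the dehydration branch of the DREB family, rose by 2.21 ± 0.27 (adjusted p = 0.00615). Of 5 genes of the DREB1 cold branch, 4 fell in KD lethal: DREB1G by 4.32 ± 0.04 (adjusted p = 3.27e-06), DREB1B by 3.76 ± 0.12 (adjusted p = 0.000106), DREB1A by 3.47 ± 0.12 (adjusted p = 0.000137) and DREB1E, named after its values were seen, with a difference of -1.5 ± 0.14 (adjusted p = 0.00235), all on the log2 scale. DREB1C was at the floor in every group. BHLH148 fell by 2.70 ± 0.27 (adjusted p = 0.00316). DREB1A, DREB1B, DREB1E, DREB1G, BHLH148, ABA8OX1, PP2C30 and TPP1 had higher means in KD lethal than in B4NU, the other vector. Between the 2 vectors, the direction therefore held only against pANDA. KD lethal also lay below KD wild-type-like, within the set. In the same order of genes, those differences were -3.22, -3.42, -1.39, -3.23, -2.16, -2.03, -2.08 and -2.25. That of TPP1 did not pass (adjusted p = 0.0907). B4NU was at the floor for DREB1B, DREB1E and DREB1G. MYB2, the remaining factor that fell in KD lethal (-2.34 ± 0.17, adjusted p = 0.000987), also had a higher mean there (6.11) than in B4NU (3.52). It was lower in KD lethal than in KD wild-type-like as well (-2.05).

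In OE, 1 of the 17 factors was higher and 2 were lower than in B4NU (17.6%, beside 2.88% of all genes). HOX24, a homeodomain-leucine zipper factor, read 5.46 and 4.80 in OE and 2.60 and 2.55 in B4NU, where it was at the floor, and rose at least 5.89-fold (2.56 ± 0.27, adjusted p = 0.0199). That call was lost without any 1 array of B4NU, pANDA or KD wild-type-like. It was also lost with a replicate block, quantile scaling or array weights and in a fit of the 4 arrays alone. DREB1A, at the floor in OE, fell by 1.67 ± 0.12 on the log2 scale as measured, which is a lower bound (adjusted p = 0.00672, a call lost with array weights and in a fit of the 4 arrays alone). NAC5 fell by 0.56 ± 0.08 on the log2 scale (adjusted p = 0.0404). NAC5 lost its call without any 1 array of B4NU, pANDA or KD lethal and without OE replicate 1. Among other settings, it also lost the call with a replicate block, quantile scaling or array weights and in a fit of the 4 arrays alone. In KD wild-type-like 1 of the 17 was called (5.88%, beside 0.363% of all genes), DREB1G, which fell by 1.09 ± 0.04 (adjusted p = 0.00173). The call was lost with dim probe sets left out and in a fit of the 4 arrays alone, and against B4NU the difference was 4.44, in the other direction.

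Of 9 genes for osmoprotectants, small solutes that cells build up under water loss, 2 rose and 2 fell in KD lethal (44.4%, beside 26.2% of all genes), and limma called 0 in OE (1 at an unadjusted p under 0.05) and 0 in KD wild-type-like (2 at an unadjusted p under 0.05). OAT, ornithine aminotransferase, read 8.68 and 8.85 in KD lethal against 4.5 and 4.71 in pANDA (4.16 ± 0.18, 17.9-fold, adjusted p = 0.00022). BADH1, betaine aldehyde dehydrogenase, rose by 3.24 ± 0.17 (adjusted p = 0.000393). TPP1, a trehalose-phosphate phosphatase, fell by 3.26 ± 0.62 (adjusted p = 0.0257) and RFS, raffinose synthase, by 2.58 ± 0.41 (adjusted p = 0.0149) on the log2 scale. The TPP1 call was lost on leaving out any 1 array other than the OE arrays (adjusted p up to 0.115), and the RFS call without either pANDA array and without KD lethal replicate 2 (adjusted p up to 0.0801). Over all 59 genes of these lists, limma called 24 in KD lethal (40.7%, against 26.2% of all genes), 4 in OE (6.78%, against 2.88%) and 1 in KD wild-type-like (1.69%, against 0.363%). The OE count was 8 without OE replicate 1, 18 without OE replicate 2 and 2 without any 1 array of B4NU or pANDA, and that of KD wild-type-like was 2 without either OE array or KD wild-type-like replicate 1.

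**Figure D3:**
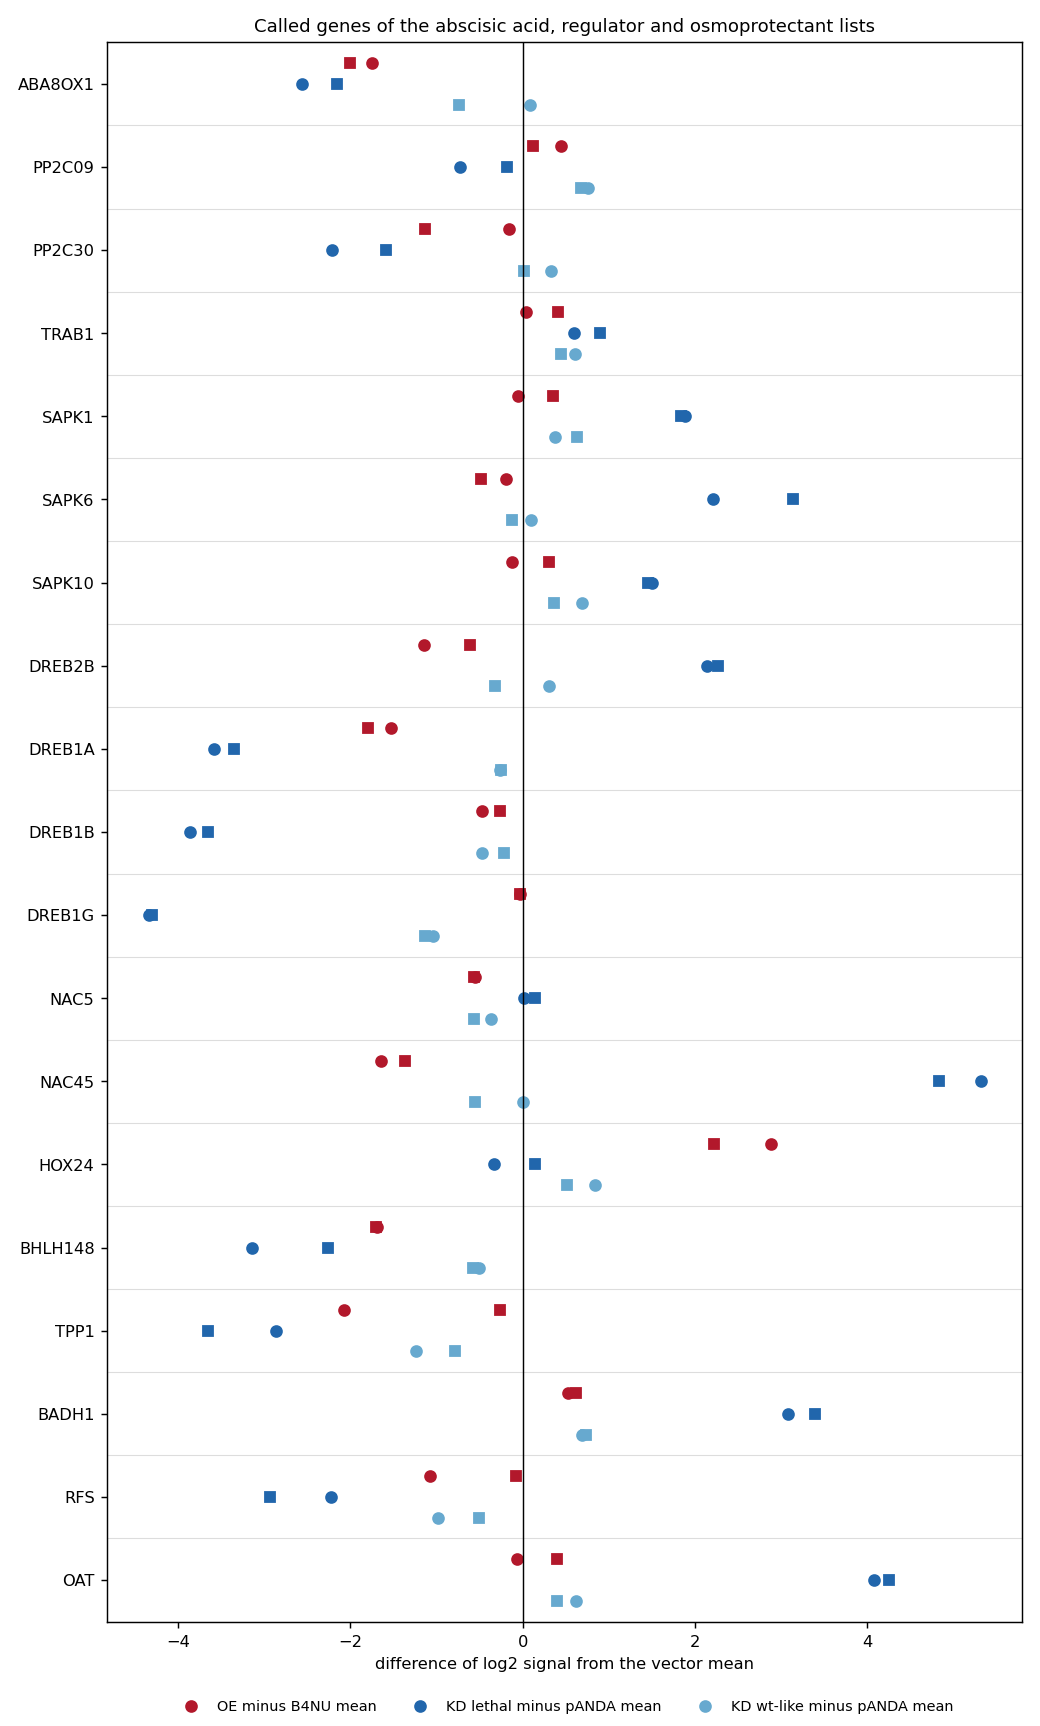
Log2 signal of each transgenic array minus the mean of its vector arrays, for the named genes of the abscisic acid, transcription factor and osmoprotectant lists that limma called in at least 1 comparison (circles, replicate 1; squares, replicate 2; colours, the 3 transgenic groups). The KD lethal arrays lie farthest from 0 for most of them, as for OAT (mean difference 4.16) and DREB1G (mean difference -4.32), while HOX24 is farthest in OE.

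The genes whose arrays ran most like each member were sought among 805 named genes with a range of at least 2 log2 units. Over the 10 arrays, RAB21 was followed most closely by LEA3 (r = 0.923), IVD, an isovaleryl-CoA dehydrogenase (r = 0.912), and OsSWEET15, a sugar transporter (r = 0.892). PM1 was followed by OC-X (r = 0.961), OsSWEET15 (r = 0.953) and LEA3 (r = 0.951). RAB16B had weaker partners, ELA3 (r = 0.786), RAB16D (r = 0.784) and HOX24 (r = 0.766). Over the 6 transgenic arrays, after subtraction of the vector means, r was 0.928 for RAB21 with LEA3, 0.656 with IVD and 0.424 with OsSWEET15, and 0.952 for PM1 with OC-X, 0.850 with OsSWEET15 and 0.664 with LEA3. RAB16B gave 0.772 with ELA3, 0.590 with RAB16D and 0.699 with HOX24, and with LEA3 it gave 0.754 over the 10 arrays and -0.196 over the 6. By r over the 6 arrays, LEA3, IVD and OsSWEET15 ranked 102, 326 and 390 of the 805 genes for RAB21. OC-X, OsSWEET15 and LEA3 ranked 2, 22 and 115 for PM1, and ELA3, RAB16D and HOX24 ranked 33, 91 and 45 for RAB16B. LEA3 was thus not the closest gene to RAB21 over the 6 arrays.

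SALT had other partners, OsYAB3 of the YABBY factors (r = 0.979), R1C-Prx, a 1-Cys peroxiredoxin known from seed (r = 0.978), BGLU26 of the beta-glucosidase family (r = 0.973), the aquaporin OsPIP1;3 (r = 0.970) and GLN1-3, a cytosolic glutamine synthetase (r = 0.967). R1C-Prx averaged 7.44 in KD lethal and 2.63 in the wild-type-like knock-down, against 2.56 in pANDA, and 3.27 in OE against 2.62 in B4NU. These partners were highest in KD lethal, as SALT was. Arrays of a group share their treatment and scaling, so r is a description over 10 arrays in 5 groups and says nothing of a common control.

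**Figure D4:**
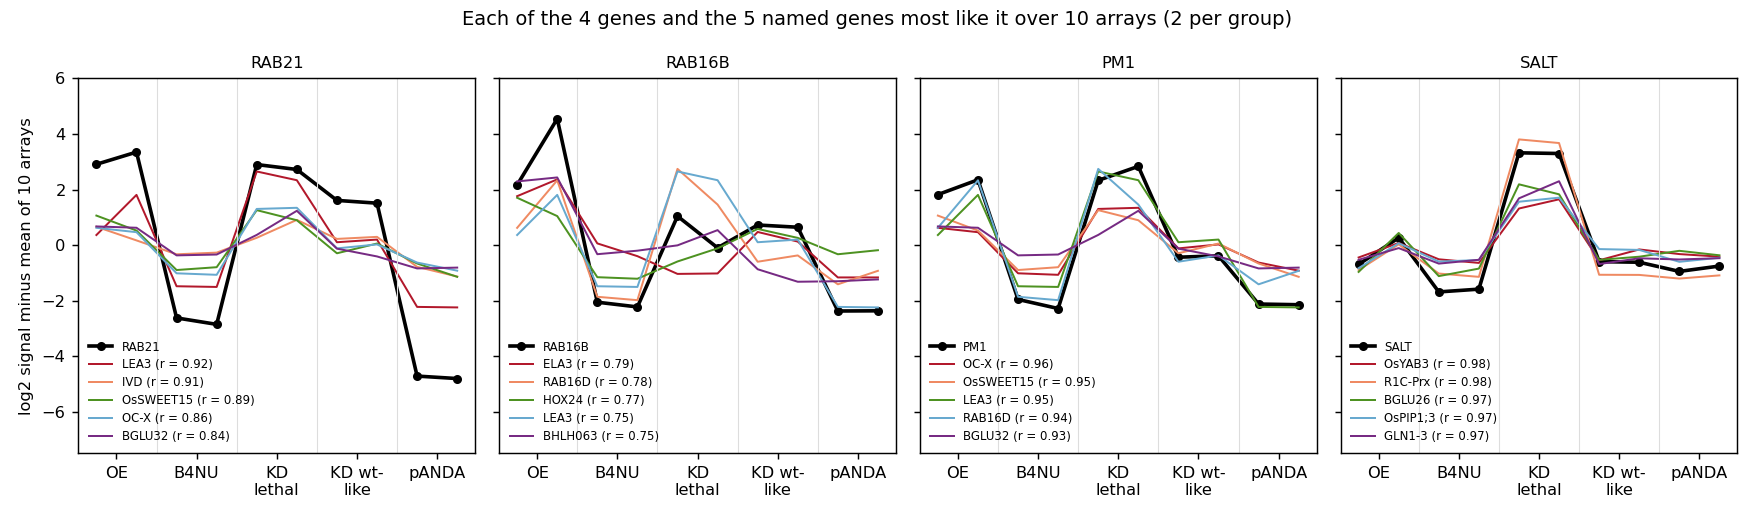
Log2 signal minus its mean over the 10 arrays, for each of the 4 genes (black) and the 5 named genes most like it (coloured lines, which only guide the eye), with 2 arrays in each of 5 groups. LEA3 follows RAB21 (r = 0.923) and OC-X follows PM1 (r = 0.961), and the genes most like SALT peak in KD lethal.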

How the data were processed

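Probe set values were deposited by the authors in 1 table, on the log2 scale as judged from their range. GCOS and Affymetrix Expression Console 1.4.1.46 are named in the submitters' processing notes; the sources used here do not give how the values were summarized and normalized. The lowest value was 2.44 on the 4 OE and B4NU arrays and 2.441 on the 6 knock-down and pANDA arrays, from which these were taken to have been scaled separately, an inference from the values, and comparisons stay within a set. The 123 control probe sets were left out. Gene names came from the platform annotation and the RefSeq table of assembly ASM3414082v1, and the probe set with the highest mean over the 10 arrays stood for its gene.

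The members and lists were chosen with earlier results of these data known. Lists were names matched to the annotation, and names that matched no gene or several genes were dropped, so the lists are not complete. Members are described by array values and by mean differences with the SE from both groups' arrays. All other genes were tested, two-sided, in a single limma model (limma 3.58.1, R 4.3.3) of all 10 arrays with a coefficient for each group, using lmFit and eBayes with no trend and 5 residual degrees of freedom. Adjusted p came from Benjamini-Hochberg over 57258 probe sets, called under 0.05. Genes named are all of the LEA list and, of the other lists, at most the 5 called genes with the largest difference per list and comparison. VP1 and MYB2 were added to complete counts, and DREB1E after its values were seen. A few genes are named only to say what a list held. The number of arrays limits the precision, and nothing beyond the words biological replicate says how separate the 2 samples of a group were. The code was tested on simulated data. A planned promoter motif search was not made.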

Additional observations from a re-analysis of the deposited data

Results flagged for a closer look

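The difference in effect between KD lethal over pANDA and OE over B4NU was tested as a contrast of contrasts in the limma fit, and passed (adjusted p under 0.05 over all probe sets) for 16 of the 59 list genes, beside 11.7% of all genes, among them the 12 named here. It was positive, the KD lethal difference lying above the OE difference, for NAC45 (6.58, adjusted p = 0.00125), OAT (4.0, adjusted p = 0.00158), DREB2B (3.09, adjusted p = 0.0134), SAPK6 (3.02, adjusted p = 0.0199), BADH1 (2.67, adjusted p = 0.00482), SAPK1 (1.71, adjusted p = 0.0181) and NAC5 (0.63, adjusted p = 0.0321). It was negative for DREB1G (-4.30, adjusted p = 1.22e-05), DREB1B (-3.39, adjusted p = 0.000796), HOX24 (-2.65, adjusted p = 0.0195), BURP3 (-2.06, adjusted p = 0.000682) and DREB1A (-1.80, adjusted p = 0.00593). NAC5 had a difference of -0.56 in OE and of 0.07 in KD lethal (adjusted p = 0.772). DREB1A and NAC45 were at the floor in OE, so their OE differences are lower bounds: the contrast could lie nearer to 0 than -1.80 for DREB1A and above 6.58 for NAC45. HOX24 was at the floor in B4NU, so its contrast could lie farther from 0 than -2.65. Neither DREB1B nor DREB1G was above the floor in OE or B4NU. The vectors also differed, pANDA minus B4NU being 5.53 for DREB1G, 6.63 for DREB1B and 3.69 for DREB1A. For these genes the KD lethal means (3.68, 5.79 and 4.47) lay above the OE means (2.44, 2.55 and 2.58). Their negative contrasts thus depend on the vector each group was set against. For HOX24 and BURP3 the KD lethal means lay below the OE means. These vector and OE comparisons cross the 2 sets of arrays. BURP3 rose in OE and fell in KD lethal, each past the test.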

How the results depend on the processing

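Array number and the low signal of many probe sets limit these results. All differences of the 4 genes from a vector stayed positive under every alternative run. RAB21 reached 6.19 in OE, 7.75 in KD lethal and 1.49 between the knock-downs with quantile scaling of all 10 arrays, and 6.08 in OE with centred arrays. With the other vector as control, which crosses the sets, RAB21 was 7.89 in OE, 5.55 in KD lethal and 4.30 for KD wild-type-like, and SALT 0.64, 4.95 and 1.03. Without both arrays that stand apart, the OE differences were 6.09 for RAB21, 6.69 for RAB16B, 4.47 for PM1 and 1.90 for SALT, and RAB16B between the knock-downs turned from -0.21 to 0.36.

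Leaving out 1 array at a time gave, in OE, 5.65 to 6.09 for RAB21, 4.31 to 6.69 for RAB16B, 3.94 to 4.47 for PM1 and 0.94 to 1.90 for SALT. In KD lethal it gave 7.48 to 7.66, 2.27 to 3.41, 4.46 to 4.97 and 4.06 to 4.26 for the same genes, in KD wild-type-like 6.27 to 6.37, 3.01 to 3.09, 1.70 to 1.75 and 0.15 to 0.34, and between the knock-downs 1.16 to 1.34, -0.78 to 0.36, 2.74 to 3.25 and 3.90 to 3.93.

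The count of list genes called was 4 in OE, 24 in KD lethal, 1 in KD wild-type-like, 22 between the knock-downs and 16 for the contrast of contrasts. With only the 4 arrays of the compared groups it was 0, 9, 0 and 4 for the first 4 comparisons. With dim probe sets left out it was 9 in OE and 0 in KD wild-type-like. With array weights it was 0 in OE, 2 in KD wild-type-like and 8 for the contrast of contrasts. Without both arrays that stand apart it was 13, 2, 36 and 26 in OE, KD wild-type-like, between the knock-downs and for the contrast of contrasts. With the other vector it was 22 in OE and 20 in KD wild-type-like. Leaving out 1 array gave 2 to 18 in OE, 17 to 31 in KD lethal, 1 to 2 in KD wild-type-like, 16 to 34 between the knock-downs and 7 to 29 for the contrast of contrasts. Where fewer arrays entered, the spread had fewer degrees of freedom; the cause of the other shifts was not tested.

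Over all probe sets, 802 were called in OE, 7000 in KD lethal, 139 in KD wild-type-like, 6408 between the knock-downs and 3180 for the contrast of contrasts. With the 4 compared arrays alone these were 17, 2786, 20 and 1191 for the first 4. Without both arrays that stand apart all 5 were 4003, 12596, 230, 12345 and 9439. Array weights gave 83 in OE, 391 in KD wild-type-like and 1619 for the contrast of contrasts, and dim probe sets left out gave 1420, 45 and 4977. Centring gave 1944 in OE, 237 in KD wild-type-like, 9743 between the knock-downs and 5722 for the contrast of contrasts. The other vector gave 7865 in OE and 5756 in KD wild-type-like. Quantile scaling gave 219 in KD wild-type-like, and in OE 363 higher and 645 lower, against 187 and 615 as reported; for the contrast of contrasts it gave 2002 and 1932, against 1978 and 1202, and centring 3010 and 2712. Leaving out 1 array gave 349 to 12772 in OE, 67 to 2380 in KD wild-type-like and 1923 to 13919 for the contrast of contrasts.

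With the other vector, 8 calls of named genes changed direction, a count that does not cover DREB1E or MYB2. In KD lethal ABA8OX1 was 1.28, PP2C30 0.03, DREB1A 0.23, DREB1B 2.86, DREB1G 1.21, BHLH148 2.77 and TPP1 0.58, and in KD wild-type-like DREB1G was 4.44. LEA3 with RAB16B gave r = -0.196 over 6 arrays. Of 42 calls of named genes, 9 were lost in no alternative and 29 were lost with the 4 arrays alone.

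Same-numbered samples did not deviate together in a steady way (correlations of their deviations between -0.57 and 0.31), so the numbers are not taken to pair them. The -0.57 was that of OE with KD lethal. There, OE replicate 1 deviated more like KD lethal replicate 2, and these are the 2 arrays that stood apart. With a replicate block the list counts were 2 in OE, 19 in KD lethal, 1 in KD wild-type-like, 17 between the knock-downs and 11 for the contrast of contrasts, the counts over all probe sets were 423 in OE and 49 in KD wild-type-like, and the differences of the 4 genes did not change. The promoter motif search was not run.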
